A study of Mus musculus with 9 samples.

Results

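Among 11209 genes measured at or above a mean of log2 4 in the colonic mucosa of mice, 54 stood highest in hGas transgenic mice, between in wild-type mice (WT) and lowest in mice without the gastrin gene (Gas-/-, named GasKO here). Each gene was read through the probe set with the highest mean over the 9 arrays, out of 18194 genes with a probe set of their own. A gene was taken when every hGas array exceeded every WT array, every GasKO array lay below every WT array, and the hGas mean exceeded the GasKO mean by at least 0.5 on the log2 scale. These values chose the genes, so the levels below are descriptions and carry no test. There were 3 arrays per group. Every mouse was labelled male, 6 weeks old and of the C57BL/6 background. Genotype was the only difference between the groups that the labels name. The promoter that drives the transgene is not given in the sources used here, and no label states that replicates were separate mice, so each p-value rests on the scatter of the arrays, which may be technical. With so few arrays the precision is limited.

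Progastrin is the precursor peptide made from the gastrin gene. G cells of the stomach cut and amidate it to gastrin, the hormone that drives acid secretion, while unprocessed progastrin circulates at low levels and acts as a growth factor for colonic epithelium in mice. The colonic mucosa holds columns of absorptive, goblet and endocrine cells over a lamina propria of fibroblasts, vessels and immune cells. The series title links progastrin to proliferation of cancer cells. Peptide levels were not used here, so the order described is one of genotypes.

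Gast, the targeted gene, lay at background on all 9 arrays, with means of 1.95 ± 0.01 in hGas, 2.08 ± 0.08 in GasKO and 1.96 ± 0.02 in WT (log2, SD, n = 3 each). Its probe set therefore checked neither the transgene nor the knockout. Array medians lay between 4.13 and 4.16, and 50.8% to 51.0% of probe sets reached log2 4. Epithelial markers were high in each group, with Epcam at 13.66 in hGas, 14.02 in GasKO and 13.67 in WT, and Muc2 at 14.79 in hGas, 14.67 in GasKO and 14.53 in WT. The smooth muscle gene Myh11 was also high, at 13.12 in hGas, 13.21 in GasKO and 13.22 in WT. The pancreatic gene Cpa1 stayed near 2.00 on each array. The fat gene Adipoq was uneven, at 6.45 ± 1.13 in hGas, 8.15 ± 0.71 in GasKO and 6.11 ± 1.68 in WT. Its WT arrays alone ran from 4.18 to 7.25, and no comparison reached a limma adjusted p under 0.05. The leukocyte gene Ptprc averaged 8.21 ± 0.07 in hGas, 9.32 ± 0.29 in GasKO and 8.44 ± 0.21 in WT. The part of fat or leukocytes in the genes described here was not tested. In bulk mucosa, fewer cells of a type and less RNA per cell cannot be told apart.

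The distance between hGas and GasKO ran from 0.50 to 4.40 on the log2 scale over the 54 genes, with a median of 0.84. It reached 1 in 21 genes and 2 in 6 genes. Most of it lay on the GasKO side of WT. The GasKO mean was below the WT mean by 0.22 to 3.14, with a median of 0.50, whereas the hGas mean was above the WT mean by 0.09 to 1.29, with a median of 0.30. The part of the whole distance found between hGas and WT ranged from 8.95% to 72.8% and had a median of 34.5%. It was under 50% in 43 genes and at least 50% in 11. Over all genes too, limma called more in GasKO against WT (1366) than in hGas against WT (131). The share was not computed for genes outside the 54.

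**Figure D1:**
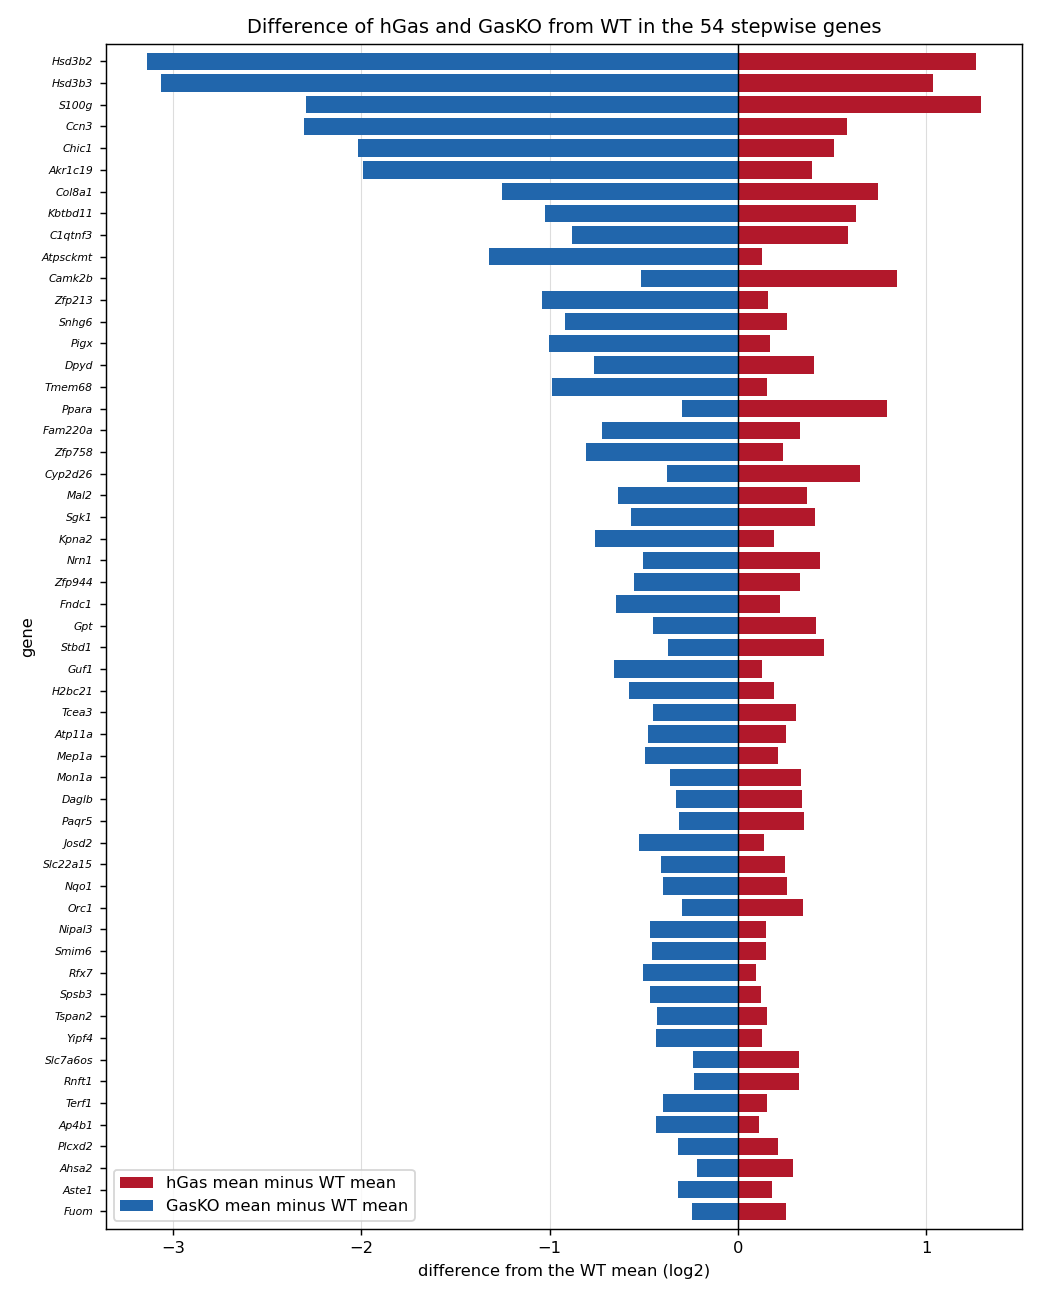
Difference of the hGas mean (red) and of the GasKO mean (blue) from the WT mean for each of the 54 genes, on the log2 scale, with genes ordered by the hGas minus GasKO difference. The blue bars are the longer ones in 43 genes, and Camk2b, Ppara and Cyp2d26 are the clearest of the 11 with the longer red bar.

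The 54 genes are 0.482% of those at log2 4. The opposite order, GasKO above WT above hGas with the same minimum distance, held for 98 genes, and the remaining 4 orders of the genotypes held for 2 to 40 genes each. Separation of single pairs of groups was common among all genes: every hGas array exceeded every GasKO array in 18.2% of them, every GasKO array lay below every WT array in 14.9%, and every hGas array exceeded every WT array in 9.32%. In limma's fit to 11274 genes, all 54 passed an adjusted p of 0.05 in hGas against GasKO, where 8.05% of genes were called higher and 8.51% lower. In GasKO against WT 39 of the 54 passed, where 5.48% of genes were called lower and 6.63% higher. In hGas against WT 2 of the 54, Hsd3b2 and Col8a1, passed, where 0.639% of genes were called higher and 0.523% lower. Leaving out 1 array at a time left Hsd3b2 called there each time, and Col8a1 only without WT replicate 2. The rule used these same differences, so nothing is read from the counts.

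The smaller step was often close to the spread between arrays. The gap between the lowest hGas array and the highest WT array was under 0.05 in 14 genes, and the gap between the highest GasKO array and the lowest WT array was under 0.05 in 4. Both gaps reached 0.1 in 21 genes. Choosing anew on 8 arrays, which asks for fewer separations, gave between 60 and 127 genes. There were 127 without WT replicate 3, 93 without hGas replicate 3, 86 without WT replicate 2 and 60 without GasKO replicate 3. The source of the spread between these counts was not tested.

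**Figure D2:**
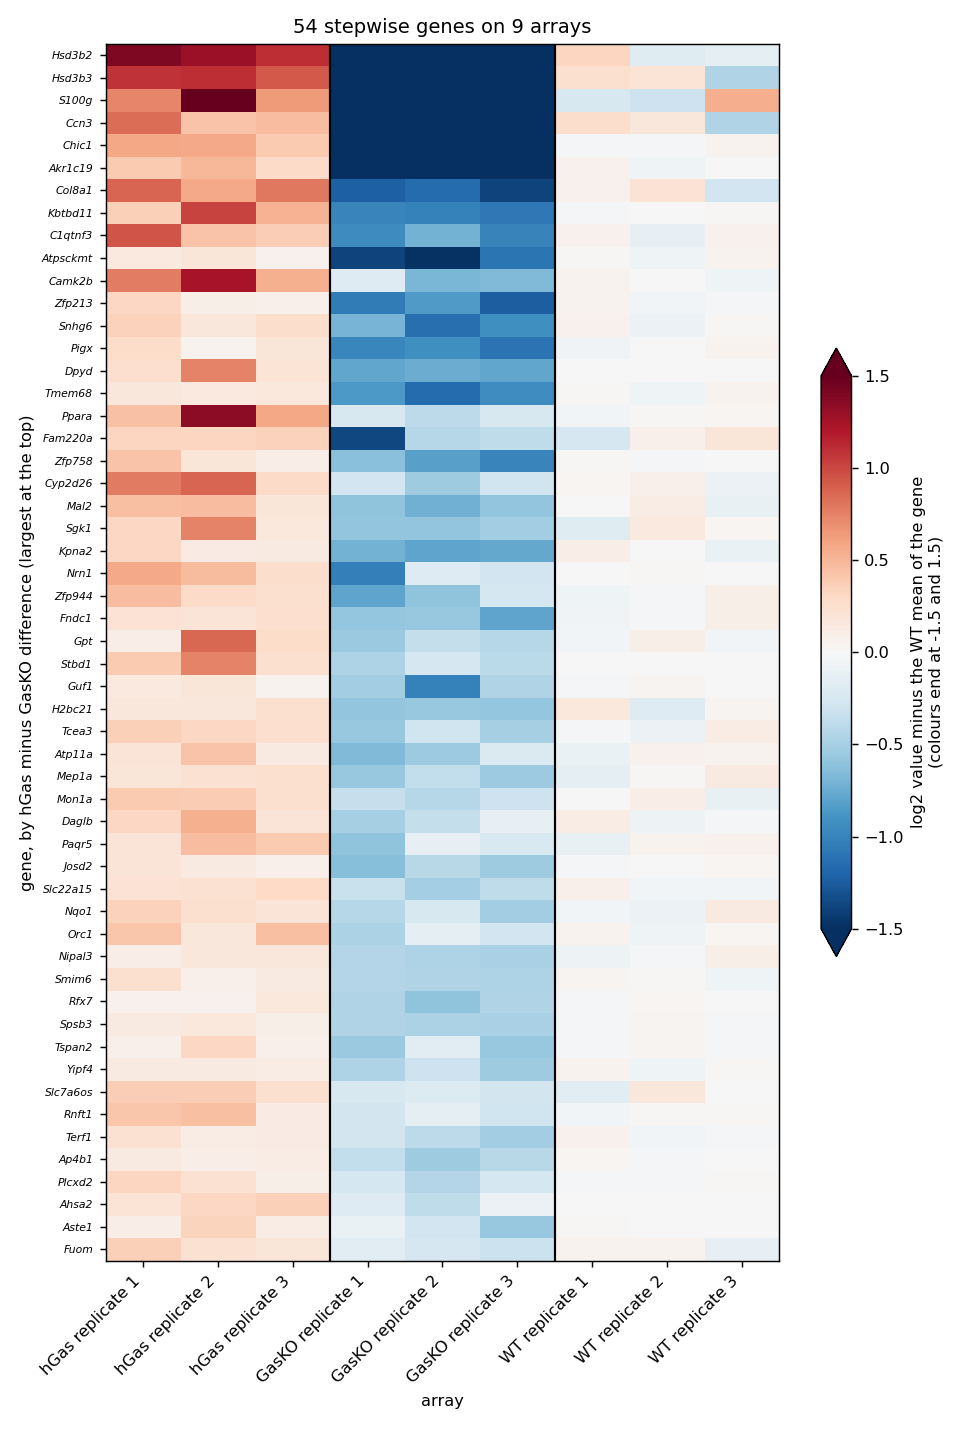
Log2 value minus the gene's WT mean for the 54 genes (down the page, largest hGas minus GasKO difference at the top) on the 9 arrays (hGas, GasKO and WT from left to right). GasKO arrays are blue in every gene and hGas arrays red, with single darker fields on hGas replicate 2 for S100g, Ppara, Camk2b, Gpt and Sgk1.

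The 2 largest hGas minus GasKO differences belonged to genes of steroid metabolism, Hsd3b2 and Hsd3b3. S100g (3.58), Ccn3 (2.89) and Chic1 (2.53) came next, before the enzyme gene Akr1c19 (2.38). The other metabolic enzymes given here ranked lower. Hsd3b2 and Hsd3b3 encode 3-beta-hydroxysteroid dehydrogenases, which turn delta-5 into delta-4 steroids on the way to progesterone, glucocorticoids and androgens. Hsd3b2 measured 7.07, 6.95 and 6.77 on the hGas arrays, 2.58, 2.59 and 2.41 on the GasKO arrays and 5.99, 5.48 and 5.52 on the WT arrays (log2). The GasKO arrays lay at background, and the hGas arrays lay clear of the WT arrays by 0.78. Its hGas mean was 2.40-fold the WT mean and 21.1-fold the GasKO mean, a fold that depends on the background level, since Hsd3b2 alone among the 54 had a GasKO mean under log2 4. Hsd3b3 measured 10.20, 10.23 and 10.04 in hGas, 6.09, 6.42 and 5.66 in GasKO and 9.36, 9.33 and 8.67 in WT. All 3 groups were well apart, at 17.1-fold for hGas over GasKO and 2.05-fold for hGas over WT. A probe set annotated jointly to Hsd3b6, Hsd3b3 and Hsd3b2 gave 10.64, 10.75 and 10.43 in hGas, 5.36, 5.69 and 5.06 in GasKO and 9.97, 9.69 and 9.36 in WT. The values of Hsd3b2 and Hsd3b3 are uncertain where near-identical copies share probes, which was not tested. Of other genes of the family, chosen after their values were seen, Hsd3b1 and Hsd3b5 were at background in every group. Hsd3b7, an enzyme of bile acid synthesis, averaged 8.28 ± 0.11 in hGas, 8.02 ± 0.06 in GasKO and 8.04 ± 0.03 in WT, and passed limma's test in hGas against GasKO only (log2 difference 0.26, adjusted p = 0.032).

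Akr1c19, an aldo-keto reductase that reduces carbonyl groups of steroids and foreign compounds, measured 10.94, 11.04 and 10.83 in hGas, 8.53, 8.36 and 8.78 in GasKO and 10.61, 10.48 and 10.54 in WT. GasKO stood far below the other groups, 3.97-fold under WT, while hGas was 1.31-fold over WT. Its relatives Akr1c12, Akr1c13 and Akr1c14, chosen after their values were seen, lay between 11.11 and 11.78 in all groups and passed limma's test in none of the 3 comparisons. Cyp2d26, a cytochrome P450, measured 7.85, 7.95 and 7.36 in hGas, 6.78, 6.54 and 6.77 in GasKO and 7.10, 7.15 and 6.98 in WT. Here the hGas step was the larger one, 63.3% of the whole. Of its relatives, chosen after their values were seen, Cyp2d9 averaged 7.74 ± 0.12 in hGas, 8.14 ± 0.10 in GasKO and 7.87 ± 0.13 in WT and was called lower in hGas than in GasKO (log2 difference -0.40, limma adjusted p = 0.0146). Cyp2d10, Cyp2d12, Cyp2d22 and Cyp2d34 had no call in any comparison. Nqo1, a quinone reductase, and Dpyd, which starts the breakdown of uracil and thymine, were 0.65 and 1.17 higher in hGas than in GasKO on the log2 scale.

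The promoters of 4 of these enzyme genes are printed because they are the 4 genes of the list for xenobiotic and steroid metabolism among the 54. RefSeq windows on GRCm38.p6 were matched by symbol for 43 of the 54 genes (55 windows, each from 250 bases before to 50 after the start). The 250 bases before the start are shown on the strand of the gene. Capitals mark matches, on either strand, to AGATAA for the GATA factors, to GTTAAT for HNF1 and to TATAAA for the TATA box, and no 2 matches overlap.
Hsd3b2 (chr3:98724544-98724793, minus strand): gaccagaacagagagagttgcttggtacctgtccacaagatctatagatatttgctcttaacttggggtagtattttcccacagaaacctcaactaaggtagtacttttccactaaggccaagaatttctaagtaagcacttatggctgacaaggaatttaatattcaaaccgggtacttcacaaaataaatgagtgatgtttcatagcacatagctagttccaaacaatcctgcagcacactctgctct
Hsd3b3 (chr3:98762411-98762660, minus strand): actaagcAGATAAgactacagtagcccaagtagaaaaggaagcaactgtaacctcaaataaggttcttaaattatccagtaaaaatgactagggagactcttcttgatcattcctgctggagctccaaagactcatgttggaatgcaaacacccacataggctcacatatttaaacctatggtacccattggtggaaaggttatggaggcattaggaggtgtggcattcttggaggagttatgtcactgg
Akr1c19 (chr13:4233490-4233739, plus strand): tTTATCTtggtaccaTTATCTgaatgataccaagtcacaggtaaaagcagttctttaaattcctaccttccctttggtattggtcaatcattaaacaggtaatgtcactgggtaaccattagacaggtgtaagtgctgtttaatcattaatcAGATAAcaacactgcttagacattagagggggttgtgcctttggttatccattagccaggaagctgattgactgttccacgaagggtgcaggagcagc
Cyp2d26 (chr15:82794246-82794495, minus strand): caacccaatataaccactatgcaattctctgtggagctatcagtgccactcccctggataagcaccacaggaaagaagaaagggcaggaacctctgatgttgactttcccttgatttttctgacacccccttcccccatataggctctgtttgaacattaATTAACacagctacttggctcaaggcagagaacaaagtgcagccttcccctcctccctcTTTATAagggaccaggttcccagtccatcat
Hsd3b2 held none of the motifs searched. Akr1c19 held AGATAA 3 times and Hsd3b3 once. Over the 55 windows of the stepwise genes, AGATAA occurred in 9.09%, against 6.37% of the 11693 windows of all genes at log2 4, and TATAAA in 14.5% against 7.70%. GTTAAT occurred in 9.09% against 4.44%, and the HNF4 letters CAAAGTC in 9.09% against 3.99% and CAAAGGT in 1.82% against 3.16%. The SP1 letters GGGCGG were found in 60% of windows against 62.0%, and the E-box CACGTG in 7.27% against 9.78%. The CDX letters TTTATTG were in none against 2.53%, and TTTATGG in 3.64% against 1.77%. These counts describe the letters in the windows only, and a gene with several annotated starts entered with several windows. The 5 windows with AGATAA came from Akr1c19, Hsd3b3 and Sgk1 only. Those with CAAAGTC, also 5, came from Col8a1, Hsd3b3, Sgk1 and Spsb3. The full windows of Hsd3b2 and Hsd3b3 were 43.0% identical with gaps counted, whereas 2 annotated starts of Hsd3b3 had windows 98.7% identical.

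The rule left out the other tested genes of the steroid and xenobiotic list. That they do not meet the rule is therefore no result. The list was written with earlier results of these data known. Of its 46 tested genes outside the 54, 19 were called higher and 5 lower in hGas against GasKO, beside 8.05% and 8.51% of all genes. Their median difference was 0.21 beside 0.00 over all genes. In GasKO against WT 2 of the 46 were called higher and 6 lower, beside 6.63% and 5.48% of all genes. In hGas against WT 5 were called higher and 0 lower, beside 0.639% and 0.523%. The 4 of the 46 with the smallest p over the genotypes follow. Aadac, a microsomal esterase, averaged 9.46 ± 0.24 in hGas, 5.50 ± 0.33 in GasKO and 9.42 ± 0.25 in WT. Aadac fell by 3.92 in GasKO against WT (limma adjusted p = 1.25e-06) and in hGas against WT differed by 0.04 (adjusted p = 0.96). Ces2a, a carboxylesterase, likewise fell by 1.43 in GasKO against WT (limma adjusted p = 0.00018). Aldh1a1, which makes retinoic acid, was 1.34 higher in hGas than in WT (limma adjusted p = 0.0052), with GasKO at 9.97 and WT at 9.57. Hsd17b13, a lipid droplet enzyme, stood highest in GasKO and lowest in WT, at 6.10 ± 0.51 in hGas, 9.08 ± 0.03 in GasKO and 3.79 ± 0.81 in WT. It rose by 5.29 in GasKO against WT (limma adjusted p = 1.54e-05). Averaging its probe sets brought that difference to 2.65. In hGas against WT it was 2.31 higher (limma adjusted p = 0.0231). The call was lost with no filter (adjusted p = 0.0581), in a fit to the 6 arrays of those groups (0.118) and without hGas replicate 1 (0.105), hGas replicate 2 (0.0772), GasKO replicate 1 (0.0539) or GasKO replicate 3 (0.0511).

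**Figure D3:**
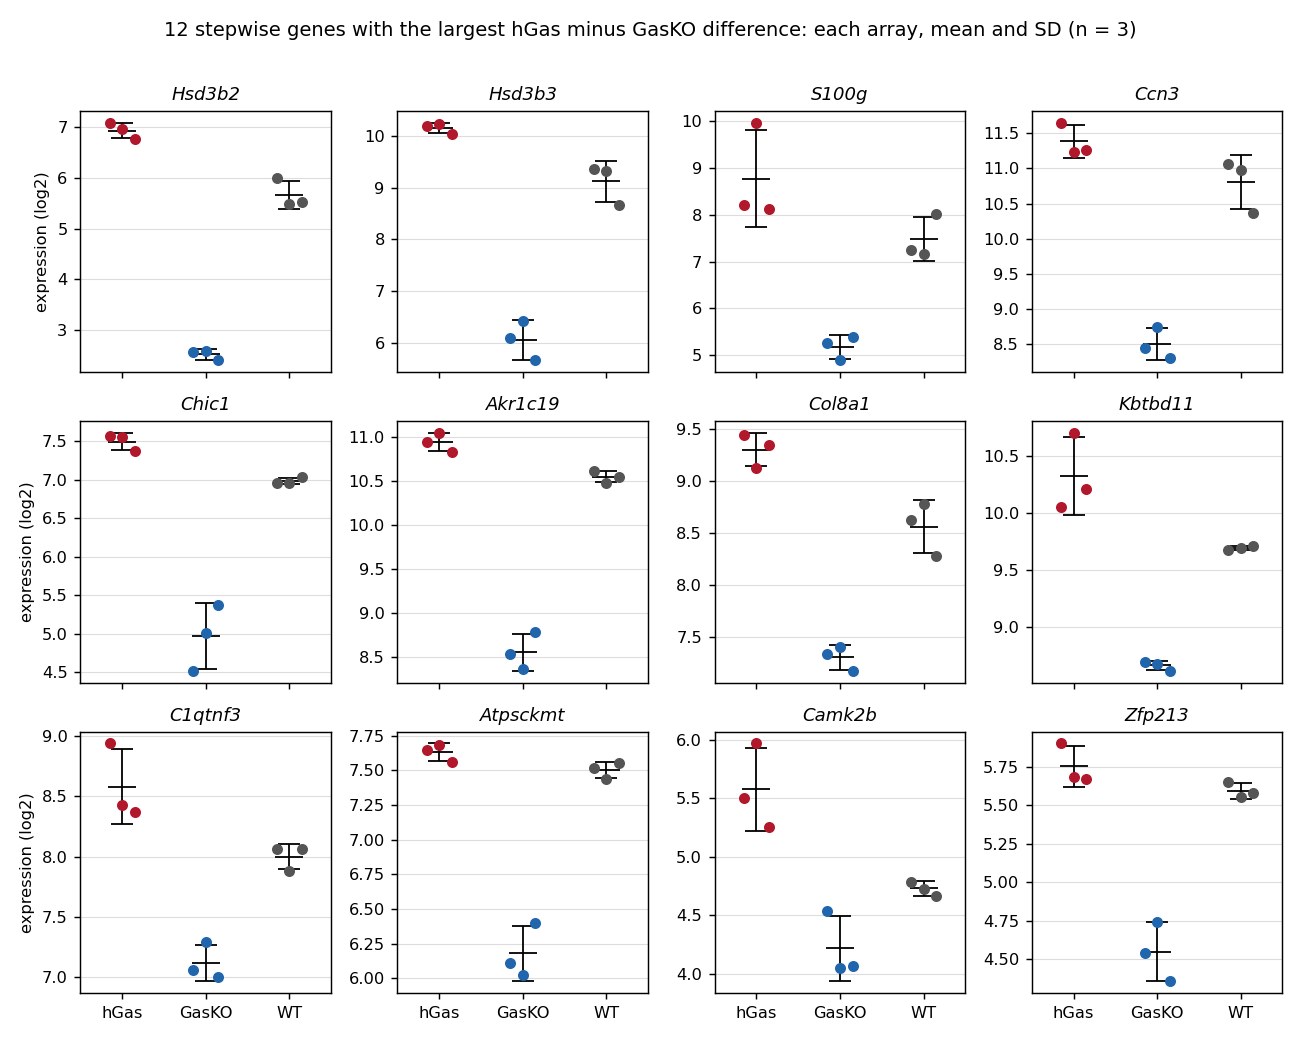
Log2 values on every array (points), with the mean and SD of 3 arrays (bars), for the 12 genes with the largest hGas minus GasKO difference, each panel with its own axis. The GasKO points lie lowest in each panel, and the hGas points of Atpsckmt and Zfp213 nearly touch those of WT.

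After the 2 Hsd3b genes, S100g had the largest difference. S100g encodes calbindin-D9k, the cytosolic carrier for calcium crossing intestinal epithelium. It measured 8.21, 9.96 and 8.12 in hGas, 5.27, 4.89 and 5.38 in GasKO and 7.24, 7.17 and 8.02 in WT. The hGas mean exceeded the GasKO mean by 3.58, and by 2.99 without hGas replicate 2, and only 0.10 separated the lowest hGas array from WT replicate 3. Around S100g, other genes of calcium transport were chosen after their values were seen. Trpv6, the channel through which calcium enters the cell, averaged 7.43 ± 0.27 in hGas, 5.83 ± 0.31 in GasKO and 7.37 ± 0.27 in WT and fell by 1.55 in GasKO against WT (limma adjusted p = 0.00073), with no call in hGas against WT (difference 0.06, adjusted p = 0.93). Atp2b1, the pump of the far side, was 0.30 higher in hGas than in GasKO (limma adjusted p = 0.014). The vitamin D receptor gene Vdr lay between 10.68 and 10.92 with no call, and its target Cyp24a1 was at background.

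Sgk1 encodes a kinase induced by aldosterone and glucocorticoids that keeps the epithelial sodium channel at the surface. It measured 12.19, 12.62 and 12.03 in hGas, 11.29, 11.28 and 11.35 in GasKO and 11.69, 12.02 and 11.91 in WT. GasKO was well apart, while hGas replicate 3 cleared WT replicate 2 by 0.01. The channel's own genes did not stand in this order. Scnn1g, chosen after its values were seen, averaged 5.08 ± 0.22 in hGas, 5.20 ± 0.18 in GasKO and 6.75 ± 0.34 in WT, and was called lower than WT in both (limma adjusted p = 0.0037 in hGas and 0.00044 in GasKO). Tsc22d3, another glucocorticoid target chosen in the same way, was 0.75 higher in hGas than in GasKO (limma adjusted p = 0.0054) and differed by -0.04 in GasKO against WT.

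Some of the 54 genes encode secreted or matrix proteins, and they are given together by that known role, with no list behind it. Ccn3, a matricellular protein of the CCN family, measured 11.65, 11.24 and 11.27 in hGas, 8.45, 8.75 and 8.30 in GasKO and 11.07, 10.98 and 10.36 in WT. Its GasKO arrays were 4.95-fold under WT, and the hGas arrays only 1.49-fold over WT. Col8a1, a short-chain collagen of vessel walls and basement membranes, measured 9.44, 9.13 and 9.35 in hGas, 7.34, 7.41 and 7.18 in GasKO and 8.63, 8.78 and 8.28 in WT. Its steps were more even, with 37.1% of the distance above WT. C1qtnf3, a secreted C1q and tumour necrosis factor related protein, measured 8.94, 8.43 and 8.37 in hGas, averaged 7.12 ± 0.15 in GasKO and measured 8.06, 7.88 and 8.06 in WT. Fndc1, a fibronectin type III domain protein, was 0.87 higher in hGas than in GasKO, and Nrn1, a membrane-anchored protein known from neurites, 0.94 higher.

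Markers of stroma and muscle were mixed, and their part in these genes was not tested. The stromal gene Col1a1 averaged 11.21 ± 0.09 in hGas, 10.86 ± 0.17 in GasKO and 11.20 ± 0.25 in WT. The muscle gene Des averaged 12.14 ± 0.17 in hGas, 11.86 ± 0.12 in GasKO and 12.16 ± 0.15 in WT. Neither had a call in any comparison. Of 16 fibroblast genes tested, 0 were called higher and 5 lower in hGas against GasKO, beside 8.05% and 8.51% of all genes. The summed linear level of the fibroblast list ran from 54172 to 55320 in hGas, from 58687 to 61426 in GasKO and from 53102 to 60199 in WT. Of 14 smooth muscle genes none was called in hGas against GasKO, and 1 was called lower in GasKO against WT. Other CCN genes were chosen after their values were seen. Ccn2 had its group means in the same order without its hGas and WT arrays being separate, and averaged 10.35 ± 0.26 in hGas, 9.54 ± 0.15 in GasKO and 10.23 ± 0.46 in WT, with a call in hGas against GasKO only (limma adjusted p = 0.028). Ccn1 and Ccn4 had no call, and Col8a2, the partner chain of Col8a1, was near background.

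In 11 of the genes the hGas side was the longer one. Ppara, the nuclear receptor that switches on fatty acid oxidation, had 72.8% of its distance above WT, the highest share of the 54. It measured 6.88, 7.79 and 7.03 in hGas, 6.20, 6.05 and 6.20 in GasKO and 6.40, 6.46 and 6.47 in WT. The hGas arrays were 1.73-fold over WT, with replicate 2 the highest, and GasKO 1.23-fold under WT. Of 20 other tested genes for fatty acid oxidation and ketogenesis, 4 were called higher and 1 lower in hGas against GasKO, beside 8.05% and 8.51% of all genes. In hGas against WT none of the 20 was called, beside 0.639% higher and 0.523% lower over all genes. Camk2b, a calcium and calmodulin dependent kinase subunit, measured 5.50, 5.97 and 5.26 in hGas, 4.54, 4.05 and 4.07 in GasKO and 4.79, 4.73 and 4.67 in WT, so its signal lay close to the log2 4 minimum in GasKO and WT. GasKO replicate 1 came within 0.13 of WT. Stbd1, a glycogen-binding protein, had 54.8% of its distance above WT. Gpt, an alanine aminotransferase, fell just short, at 47.9%.

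In the following genes most of the distance lay below WT. Chic1, a membrane-associated cysteine-rich protein, measured 7.56, 7.55 and 7.37 in hGas, 4.52, 5.01 and 5.37 in GasKO and 6.95, 6.96 and 7.03 in WT. Kbtbd11, a kelch and BTB domain protein, measured 10.05, 10.70 and 10.21 in hGas, 8.70, 8.68 and 8.62 in GasKO and 9.68, 9.69 and 9.71 in WT. Both were clear of WT on each side. Atpsckmt, which methylates a subunit of mitochondrial ATP synthase, measured 7.65, 7.68 and 7.56 in hGas, 6.11, 6.02 and 6.40 in GasKO and 7.52, 7.44 and 7.55 in WT. Its hGas and WT arrays were 0.01 apart at the nearest, and 8.95% of its distance lay above WT, the lowest share of the 54. The zinc finger gene Zfp213 was similar at 5.90, 5.68 and 5.67 in hGas, 4.54, 4.74 and 4.36 in GasKO and 5.65, 5.55 and 5.58 in WT. Zfp758 and Zfp944, also zinc finger genes, were 1.05 and 0.88 higher in hGas than in GasKO.

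The highest signals belonged to Kpna2, Sgk1 (above), Smim6 and Mal2. Kpna2, an importin that carries proteins into the nucleus, measured 12.55, 12.37 and 12.38 in hGas, 11.54, 11.45 and 11.48 in GasKO and 12.34, 12.24 and 12.15 in WT. Mal2, a protein of transport to the apical membrane, measured 11.49, 11.50 and 11.22 in hGas, 10.43, 10.31 and 10.45 in GasKO and 11.03, 11.15 and 10.92 in WT. In both, GasKO was well below WT and the lowest hGas array just above the highest WT array, by 0.03 in Kpna2 and 0.06 in Mal2. Smim6, a small membrane protein, averaged 11.24 ± 0.09 in hGas, 10.63 ± 0.02 in GasKO and 11.09 ± 0.06 in WT. Mep1a, the alpha subunit of the brush border protease meprin A, averaged 11.18 ± 0.03 in hGas, 10.47 ± 0.10 in GasKO and 10.96 ± 0.14 in WT. Among 24 other genes of absorptive colonocytes, 7 were called higher and 1 lower in hGas against GasKO, beside 8.05% and 8.51% of all genes. In GasKO against WT 1 of the 24 was called higher and 4 lower, beside 6.63% and 5.48% of all genes. In hGas against WT 2 were called higher and 1 lower, beside 0.639% and 0.523%.

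The rule for naming genes took 24 of the 54, and the other 30 had hGas minus GasKO differences between 0.53 and 1.18 with a median of 0.67. Snhg6, a host transcript of a small nucleolar RNA, led them at 1.18, with 10.01, 9.83 and 9.93 in hGas, 8.96, 8.53 and 8.74 in GasKO and 9.73, 9.57 and 9.68 in WT. Pigx (1.17) takes part in making glycosylphosphatidylinositol anchors, and Tmem68 (1.14), Fam220a (1.05) and Slc7a6os (0.56) are less well described. Genes of the nucleus among them were Orc1 of the replication origin complex (0.64), the telomere protein gene Terf1 (0.55), the histone H2B gene H2bc21 (0.77), and the factors Rfx7 (0.60) and Tcea3 (0.76). Genes of membranes and vesicles were the lipid flippase gene Atp11a (0.73), Mon1a (0.70), Yipf4 (0.56), Ap4b1 (0.55), Tspan2 (0.59), Slc22a15 (0.66), Nipal3 (0.61) and Paqr5 (0.67), a membrane progesterone receptor. Daglb (0.67), which makes an endocannabinoid, and Plcxd2 (0.53) act on lipids. Guf1 (0.79) serves mitochondrial translation, and Josd2 (0.66), Spsb3 (0.59) and Rnft1 (0.56) belong to the ubiquitin system. The rest of the 30, Dpyd, Nrn1, Fndc1, Gpt, Stbd1 and Nqo1, are given above. All values in parentheses are hGas minus GasKO differences on the log2 scale.

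At the 0.5 threshold the difference was 0.5002 in Fuom, a fucose mutarotase gene, 0.5007 in Aste1 and 0.5118 in Ahsa2 just inside, and 0.4996 in Slc25a33, 0.4964 in Stard3nl and 0.4954 in Sult1c2 just outside. With no minimum difference 116 genes stood in the same order, and 159 in the opposite order.

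Some of the genes lie side by side on a chromosome. In the order of the RefSeq gene table of GRCm38.p6, used for names and neighbours only, no protein-coding gene lies between Hsd3b2 and Hsd3b3 on chromosome 3, between Ccn3 and Mal2 on chromosome 15, or between Zfp758 and Zfp944 on chromosome 17, and 1 lies between Daglb and Fam220a on chromosome 5. Chromosomes 3, 15 and 17 held 7 of the genes each, which is 1.26%, 1.62% and 1.27% of their genes at log2 4, and chromosomes 2, 6, 12, 14, 18 and 19 held none. On chromosome 11, which also carries Gast, the nearest was Kpna2, with 167 protein-coding genes between.

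The measured genes on both sides of these pairs, 32 in all, were tested and chosen by position alone. In hGas against GasKO 4 were called higher and 5 lower, in GasKO against WT 3 higher and 4 lower, and in hGas against WT none in either direction. The shares over all genes were 8.05% and 8.51%, 6.63% and 5.48%, and 0.639% and 0.523% in turn. The 4 called higher in hGas than in GasKO were zinc finger genes around Zfp758 and Zfp944. Zfp945 averaged 7.12 ± 0.07 in hGas, 2.57 ± 0.10 in GasKO and 7.34 ± 0.10 in WT, at background in GasKO (GasKO against WT: log2 difference -4.77, limma adjusted p = 1.65e-09). Zfp994 fell by 2.07 in GasKO against WT (limma adjusted p = 5.9e-05), and Zfp943 fell by 0.87 (limma adjusted p = 0.00067). Zfp942 was 0.42 higher in hGas than in GasKO (limma adjusted p = 0.017). Zfp213 lies farther along, with 12 protein-coding genes between it and Zfp758. Among the genes beside Hsd3b2 and Hsd3b3, the secreted lectin gene Reg4 was called, 1.02 lower in hGas than in GasKO (limma adjusted p = 0.0030).

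**Figure D4:**
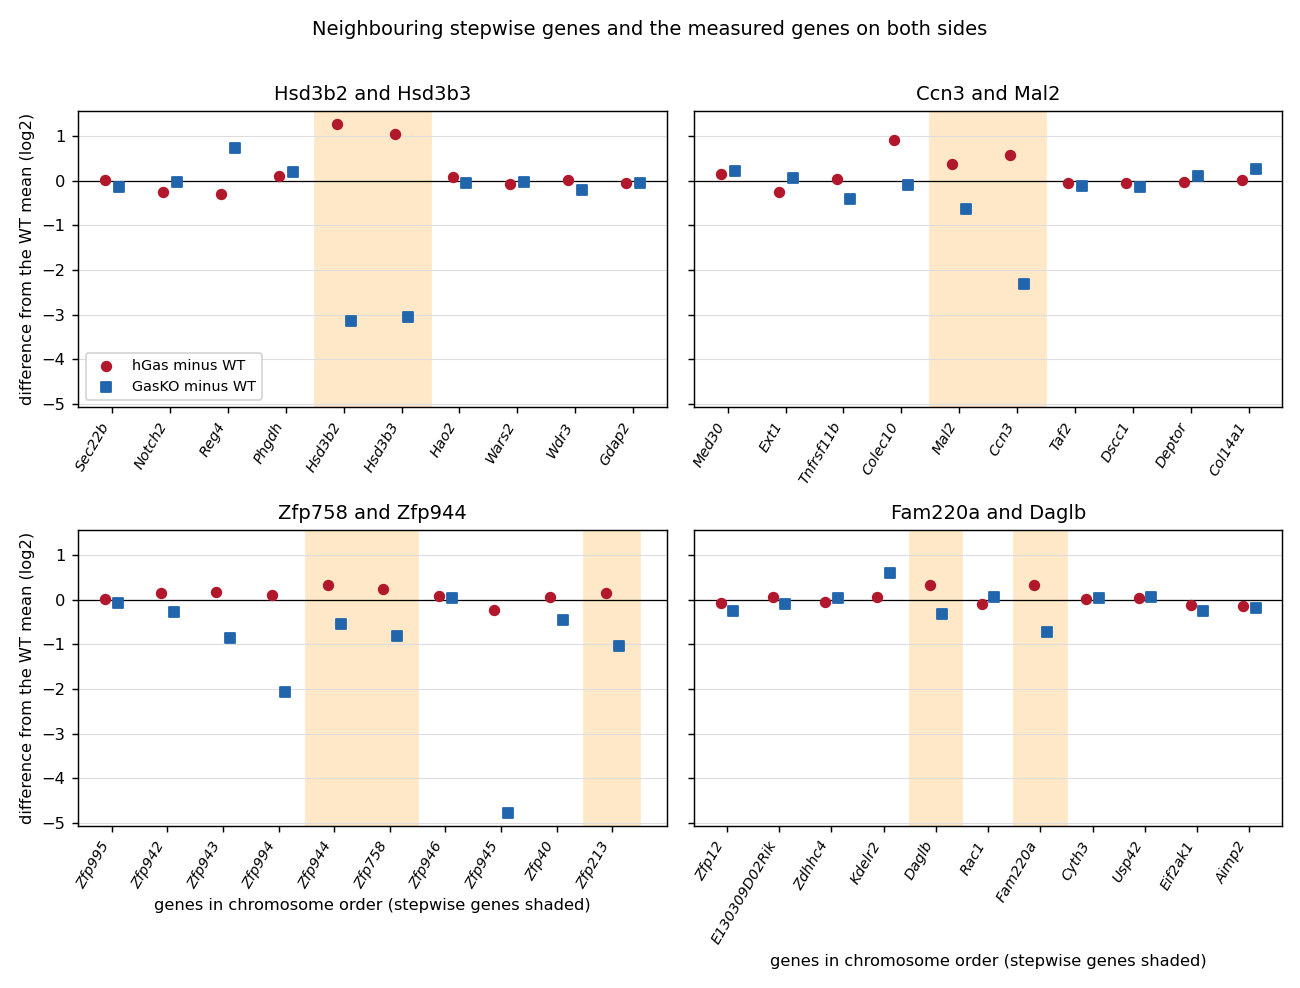
Log2 difference of hGas (red circles) and GasKO (blue squares) from WT for neighbouring stepwise genes (shaded) and the measured genes on both sides, in chromosome order. Apart from the zinc finger stretch, where Zfp943, Zfp994 and Zfp945 also lie low in GasKO, the GasKO point farthest from WT among the unshaded genes is that of Reg4, at 0.73.

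Other probe sets of the same genes read the same RNA with other oligos. Of the 54 genes, 30 had 42 others, of which 27, from 21 genes, reached a mean of log2 4. Among these 27 the group means stood in the order hGas, WT, GasKO in 19, beside 19.6% of the 8485 further probe sets at log2 4 over all genes. The genes were chosen for this order on the same arrays, so the contrast is a description and carries no support. All arrays were separate in 6 of the 27. The hGas mean exceeded the GasKO mean in 24, and by the rule's minimum of 0.5 in only 11. The other probe sets gave an hGas minus GasKO difference of 5.60 for Hsd3b3, 2.98 for Ccn3, 2.17 for Col8a1 and 1.21 and 0.85 for Ppara. Chic1, at 0.38, and Yipf4, at 2.59, differed widely from the probe set the rule used. Slc22a15 (-0.88), Nipal3 (-0.15) and Tspan2 (-0.01) had another probe set with hGas not above GasKO. Rfx7 (0.03), Rnft1 (0.07), Fam220a (0.10) and Paqr5 (0.12) had another with hGas barely above GasKO. For Slc22a15 the mean over its probe sets turned to -0.11.

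**Figure D5:**
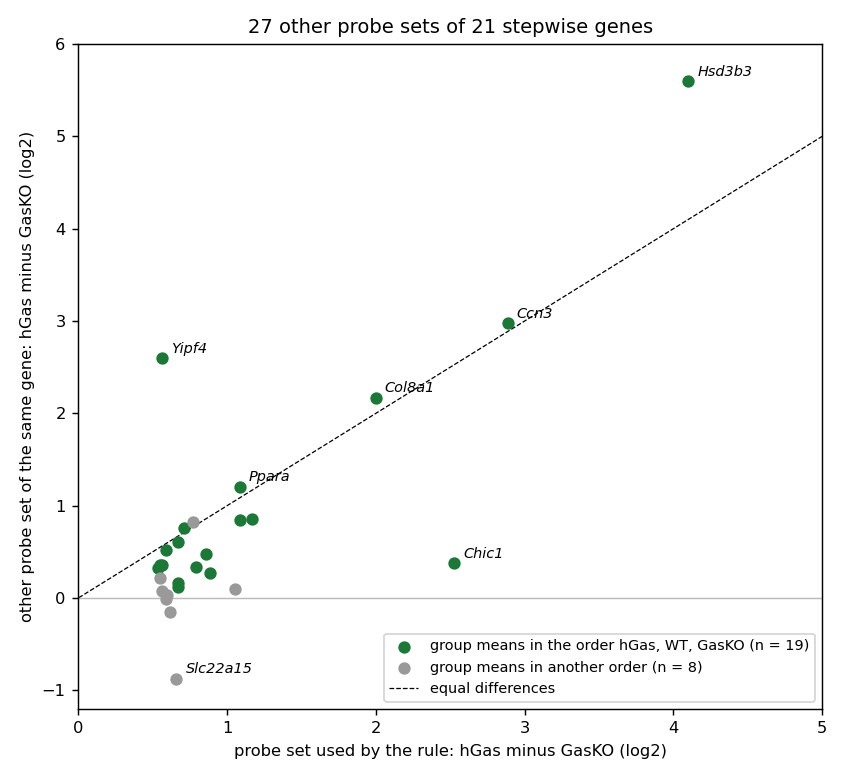
hGas minus GasKO difference (log2) of the probe set used by the rule (horizontal) against that of another probe set of the same gene (vertical), for 27 probe sets of 21 genes. Of these, 19 (green) kept the order of the group means, and Slc22a15 lies farthest below 0.

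The hGas arrays differed among themselves. Replicate 3 was the lowest of its group in 30 of the 54 genes and the highest in 8, while replicates 1 and 2 were the highest in 24 and 22. Replicate 2 exceeded both others by at least 0.3 in S100g, Ppara, Gpt, Kbtbd11, Dpyd, Camk2b, Sgk1 and Stbd1. Those 8 genes are 14.8% of the 54, beside 3.15% of all genes at log2 4. Replicate 1 did so in C1qtnf3 and Ccn3, 3.70% of the 54 beside 1.70%, and replicate 3 in none. Pdk4, a target of fasting hormones chosen after its values were seen, also had its highest value on hGas replicate 2, at 8.05. Its mean was 7.27 ± 0.69 in hGas and 6.19 ± 0.60 in WT (log2, n = 3 each). It had no call in any comparison (hGas against WT: limma adjusted p = 0.205). Of genes chosen in the same way, Angptl4 and Ehhadh had their highest hGas value on replicate 2, and Cpt1a on replicate 3. Fasting as a source of the replicate 2 values was not tested.

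Markers of other cell types and of colon regions moved between the groups beside these genes. Of 9 tested B cell genes 8 were called lower in hGas against GasKO, with a median difference of -2.09 and a summed linear level over the list of 252 to 610 in hGas, 1001 to 1527 in GasKO and 421 to 1007 in WT. All 8 tested genes of MHC class II were called lower, with sums of 4806 to 5473 in hGas, 11476 to 12726 in GasKO and 6961 to 7693 in WT. None of the 54 genes is on either list. Of 25 tested genes of the proximal colon, a list that holds Cyp2d26 of the 54, 14 were called higher and 2 lower in hGas against GasKO and 9 higher and 0 lower in hGas against WT. Their sums were 61280 to 72829 in hGas, 57873 to 65508 in GasKO and 45272 to 61691 in WT. Of 13 pan-epithelial genes 0 were called higher and 2 lower in hGas against GasKO, with sums of 91182 to 94684 in hGas, 98267 to 99226 in GasKO and 92699 to 96261 in WT. Over all genes 8.05% were called higher and 8.51% lower in hGas against GasKO, and 0.639% higher and 0.523% lower in hGas against WT. The part of the shifts in these lists in the stepwise genes was not tested. The 3′ minus 5′ signal of actin, a sign of RNA quality, was 0.905 ± 0.030 in hGas, 0.898 ± 0.035 in GasKO and 0.826 ± 0.063 in WT. That of Gapdh was -0.102 ± 0.045 in hGas, -0.105 ± 0.015 in GasKO and -0.159 ± 0.019 in WT. WT thus had the lowest mean for both transcripts, and the part of RNA quality in the stepwise genes was not tested.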

How the data were processed

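RNA of colonic mucosa, separated by injecting PBS under it and purified with Trizol per the labels' protocols, was hybridised to Affymetrix arrays with 45101 probe sets. The deposited values are log2 probe set levels made with GCRMA per the submitters' processing notes (version not stated). GCRMA corrects background by probe sequence and quantile normalises, so low values are compressed toward background. Genome build and scanner steps are not given in the sources used here.

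Probe sets with 1 gene numbered 34958, with several 932, with none 9147, and 64 were controls, and Entrez numbers paired 99.4% of the first kind with RefSeq genes of GRCm38.p6, which changed no symbol. The probe set with the highest mean stood for each of 18194 genes. Genes with at least 3 arrays at log2 4 (11274) were fitted with limma 3.58.1 (R 4.3.3; lmFit, eBayes with trend, genotype as the only term, 6 residual and 3.47 prior degrees of freedom), which was tested on simulated data. Tests were 2-sided, with Benjamini-Hochberg adjustment over the 11274 genes and calls at an adjusted p under 0.05. Members and gene lists (41 lists, 895 of 978 entries matched) were chosen with earlier results of these data known, and 7 of the 54 genes are on a list. The 3 comparisons share arrays pairwise. A summed level adds the antilogged values of all matched genes of a list.

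Named were Gast, members with the 12 largest hGas minus GasKO, 8 largest hGas minus WT and 8 largest WT minus GasKO differences, the 5 most even, the 4 with the highest signal, the 3 nearest the threshold on each side, up to 4 per list, families with at least 2 members, and, from lists with at least 2 members, the 4 other genes with the smallest F p. Same-numbered replicates were checked for pairing: their deviations from group means correlated between -0.0056 and 0.267, against -0.292 to 0.113 for unlike numbers. All 3 pairs of hGas and GasKO exceeded 0.1, but not every pair with WT, and no label ties the numbers to a litter or batch, so they were not taken as pairs. Alternatives covered the floor, the minimum difference, a margin, probe set choice, array scaling, the filter, eBayes settings, array weights, thresholds and leaving out each array. Probe sets that name several genes, or none, entered no comparison. Figures used matplotlib 3.10.9 in Python 3.11.15.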

Additional observations from a re-analysis of the deposited data

Results flagged for a closer look

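Probe sets annotated to several genes or to none, which the selection did not use, also held the stepwise order. The count came to 10092 probe sets, slightly more than the 932 with several genes and 9147 with none given above. What the few others are was not traced. Of the 10092, 3273 had a mean of at least log2 4, and 29 of them met the same conditions, 9 of these with several genes. The opposite order held for 17. The hGas minus GasKO differences of the 29 ran from 0.53 to 10.5 with a median of 1.71. The largest belonged to an unnamed probe set with 12.65, 12.94 and 12.90 in hGas, 2.29, 2.35 and 2.36 in GasKO and 12.23, 11.52 and 11.93 in WT, at background in GasKO only.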

How the results depend on the processing

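The count of 54 stepwise genes was 21 with a minimum difference of 1, 93 with 0.25, and 21 with a margin of 0.1 between groups. Among genes in the opposite order, 49 remained of 98 at a difference of 1 and 53 with the margin. The median hGas minus GasKO difference was 1.36, 0.56 and 1.17 under those settings in turn. With probe sets of a gene averaged, 39 of the 54 were kept among 52, with probe sets for 1 transcript 44 among 49, with arrays centred 50 among 56 and with arrays quantile normalised again 50 among 58. Averaging probe sets moved 24 of the member differences and turned that of Slc22a15 to -0.11. Leaving out each array gave 60 to 127 genes in the stepwise order and 101 to 141 in the opposite one, medians of 0.73 to 0.88 for the difference and 29.2% to 40.6% for the share above WT, and 18 to 20 other probe sets in order. Calls over all genes were 1866 in hGas vs GasKO (898 at an adjusted p under 0.01, 1167 to 1995 with an array left out), 1366 in GasKO vs WT (674, 845 to 1372) and 131 in hGas vs WT (21, 17 to 104). The lowest counts came without GasKO replicate 3 (1167) or 1 (1187), GasKO replicate 1 (845) or 3 (897), and hGas replicate 1 (17) or 2 (39), and in hGas vs WT every array left out except WT replicate 2 moved the count by over 1.5 times. That comparison had 58 calls with no filter and 27 in a fit to 6 arrays. The cause was not tested. With the replicate number as a block, 95 genes stood in order, 48 of the 54 among them, and hGas vs WT had 283 calls. Of the 54, the block called 43 in GasKO vs WT in place of 39, and 4 in hGas vs WT in place of 2, adding Hsd3b3 and Kbtbd11. In hGas vs GasKO it called all 54, and 2087 genes in place of 1866. Each array correlated best with its own number in 15 of 18 cases, a hint from the data and not the design. Signal at background in GasKO limits Hsd3b2, and signal close to the log2 4 minimum limits Camk2b, Orc1, Aste1 and Nrn1.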
